A study of Mus musculus with 11 samples.

Results

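The 7 genes described here make up the control unit of sterol sensing in mammalian cells: the 2 SREBP transcription factors (Srebf2 and Srebf1), the escort protein Scap, the retention proteins Insig1 and Insig2, and the Golgi proteases Mbtps1 and Mbtps2. They were chosen by symbol, and all 7 of 7 were found among the 10992 genes of the table. SREBPs are made as precursors in the endoplasmic reticulum membrane, where Scap binds them. When sterols are plentiful, an INSIG protein holds Scap and its cargo in place. When sterols run low, Scap travels in COPII vesicles to the Golgi, where site-1 protease (Mbtps1) and then site-2 protease (Mbtps2) cut the precursor and free the part that enters the nucleus. SREBP2 mainly drives cholesterol synthesis and uptake, SREBP1 mainly fatty acid synthesis, and Insig1 is itself a classical SREBP target, which closes a feedback loop.

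RNA was sequenced in bulk from regulatory T cells (Tregs), the Foxp3-expressing CD4 T cells that restrain immunity, taken from the spleen or the visceral adipose tissue (VAT) of male mice 25 weeks of age. The sort kept live cells positive for CD3, CD4 and Foxp3. All mice carried Foxp3-YFPcre, a Cre recombinase with a YFP tag under control of Foxp3, so recombination was aimed at Foxp3-expressing cells. The allele was Srebf2-WT/WT in the group called WT and Srebf2-flox/flox in the group called KO, and there was thus no group without Cre. From VAT, 3 libraries of each genotype were used, and from spleen 2 of each, numbered 2 and 3 in the labels. No label says that replicates are different animals, so p-values measure the spread between these libraries, which may be technical.

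Levels are RPKM, reads scaled to gene length and library total, and can therefore be compared between genes. Tests used limma on log2(RPKM + 1) over 10429 genes, and called a gene at a Benjamini-Hochberg adjusted p under 0.05. Differences are on that log2 scale, which understates changes of low genes. The 6 Treg markers listed (Foxp3, Il2ra, Ctla4, Ikzf2, Cd3e and Cd4) were all in the table. Their sums were 813 to 832 RPKM in VAT WT and 779 to 806 in VAT KO, all lower in KO. In spleen the sums were 535 to 573 in WT and 526 to 577 in KO. Of 8 myeloid markers 4 were in the table, with sums of 12.3 to 15.2 RPKM in VAT WT, 20.2 to 45.6 in VAT KO and 179 to 240 in spleen. Of 6 B cell markers 4 were in the table, at 13.2 to 62.4 RPKM in VAT WT, 13.6 to 28.8 in VAT KO and 25.8 to 37.7 in spleen. Of 6 markers of other lymphocytes (CD8, NK or gamma-delta) 3 were in the table, at 74.7 to 191 RPKM in VAT WT, 104 to 129 in VAT KO and 35.03 to 61.4 in spleen. Adipocytes were represented by Lipe alone (1.63 to 3.40 RPKM) and stroma and endothelium by Pecam1 alone (4.39 to 7.37 RPKM in VAT WT, 8.80 to 11.8 in VAT KO, 15.9 to 34.9 in spleen), while none of the neutrophil or red cell markers was in the table. Their part in the results below was not tested. The 2 spleen WT libraries stood apart from each other, with a correlation across genes of 0.932 against 0.968 to 0.974 between replicates elsewhere. In bulk RNA, fewer cells of a type and less RNA per cell cannot be told apart.

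In Tregs with intact Srebf2, 6 of the 7 genes were expressed at moderate to high levels and 1, Mbtps2, stood near 1 RPKM. Scap led in VAT WT at 22.04 ± 0.98 RPKM (SD, n = 3), above 82.8% of genes in the table. Srebf2 (20.9 ± 8.35), Insig1 (17.4 ± 6.16), Srebf1 (15.7 ± 5.22) and Mbtps1 (13.98 ± 2.46) followed, and each overlapped its neighbour in this order. Insig2 at 6.01 ± 0.47 and Mbtps2 at 0.843 ± 0.402 RPKM lay apart from their neighbours above. In spleen WT the order was Scap (21.9 ± 2.63, n = 2), Mbtps1 (18.1 ± 3.33), Srebf2 (16.9 ± 8.97), Srebf1 (15.7 ± 0.79), Insig1 (8.94 ± 0.85), Insig2 (7.30 ± 1.84) and Mbtps2 (0.892 ± 0.180). There, Srebf1 lay apart from Insig1 and Insig2 from Mbtps2, and the other neighbours overlapped. With Srebf2 deleted it stood in the sixth place in both tissues, and its libraries overlapped those of Mbtps2 in VAT KO.

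**Figure D1:**
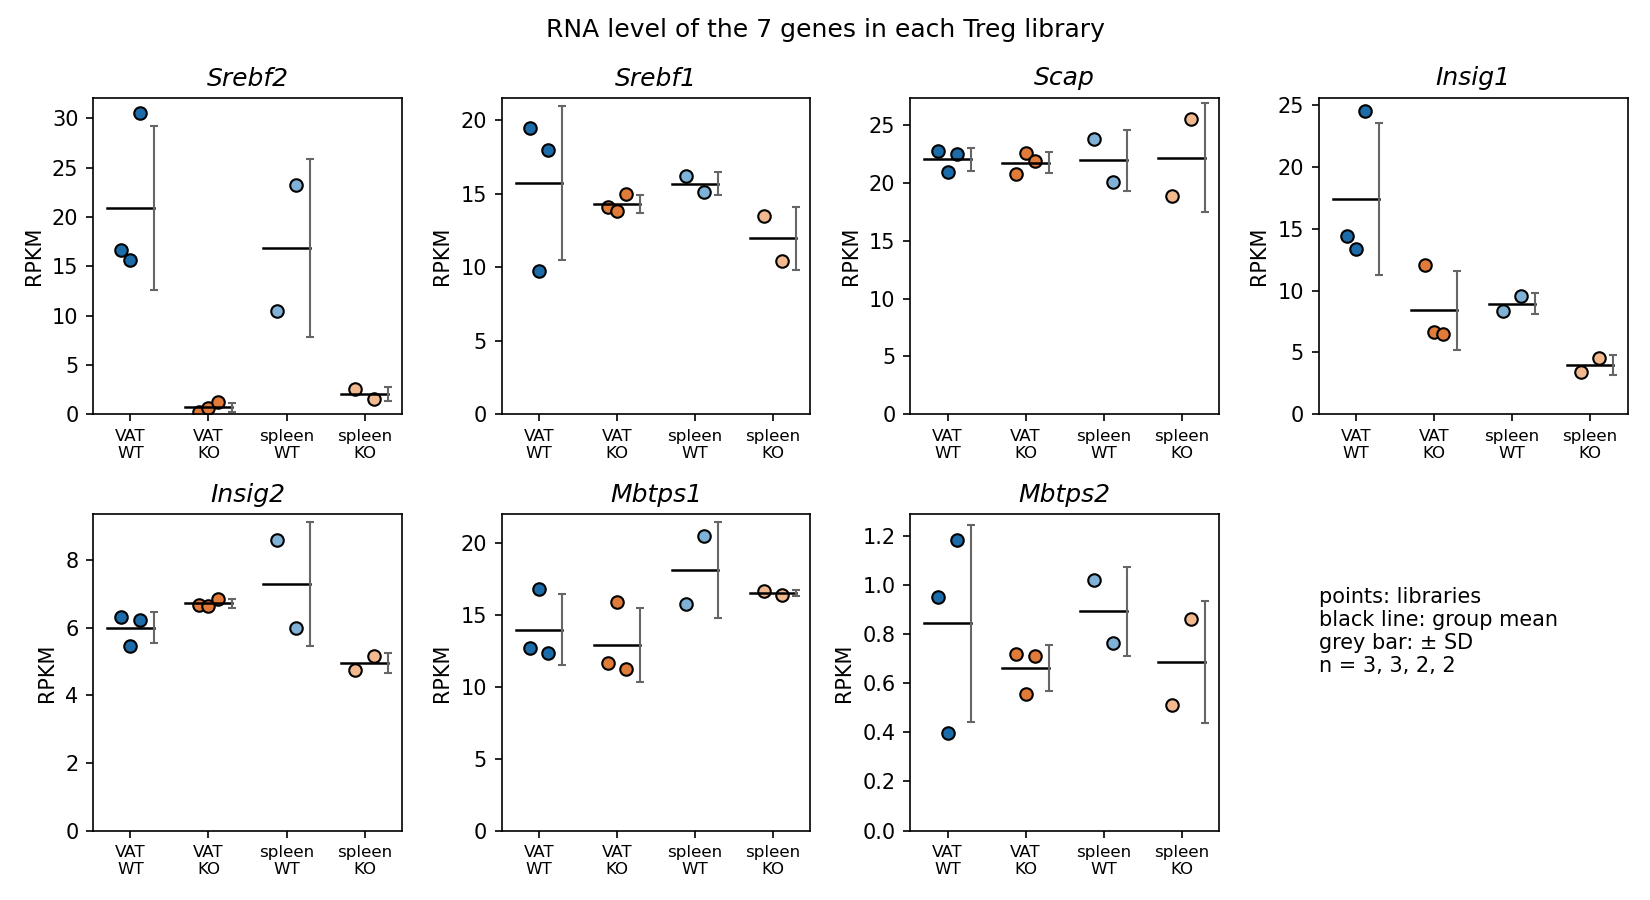
RPKM of each gene in the 10 libraries (points), with the group mean (black line) and SD (grey bar); each panel has its own scale from 0, and n is 3, 3, 2 and 2 from left to right. Srebf2 is lowest in the KO groups, Insig1 is lower in every KO library than in every WT library of its tissue, and Scap stays between 18.9 and 25.5 RPKM throughout.

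The targeted gene Srebf2, which encodes SREBP2, served as a check of the genotype labels in the libraries used here. Srebf2 (Entrez 20788) lies on the plus strand at chr15:82147269-82205379 of GRCm38.p6, the build also called mm10. Its VAT WT libraries held 16.6, 15.6 and 30.5 RPKM. In VAT KO it stood at 0.263, 0.6 and 1.23 RPKM. Every KO library lay far below every WT library, and the mean in KO was 3.33% of that in WT. The difference was -3.67 ± 0.33 (SE; 95% interval -4.38 to -2.95; adjusted p = 0.00081), the smallest p of all genes tested. In spleen WT it stood at 10.5 and 23.2 RPKM, and in spleen KO at 2.59 and 1.59. The groups again did not overlap, with a KO mean at 12.4% of WT. The spleen difference of -2.45 ± 0.40 (95% interval -3.33 to -1.58) had the second smallest p of all genes but did not pass (adjusted p = 0.244). Without spleen WT replicate 2 it was -2.99 (adjusted p = 0.0295), and without spleen WT replicate 3 it was -1.92 (0.0178); the single spleen WT library left is then assumed to vary like the other groups. Remaining Srebf2 was lower in all 3 VAT KO libraries than in both spleen KO libraries, a difference of -0.89 ± 0.37 that did not pass (adjusted p = 0.134). A value per gene also counts reads from exons outside the floxed part, and which exons are floxed is not given in the sources used here. An intron of Srebf2 also carries the microRNA gene Mir33 (chr15:82198122-82198190), whose product was not measured here.

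Srebf1, the gene of SREBP1 (Entrez 20787; minus strand, chr11:60199084-60224186), did not pass in any comparison. It stood at 19.5, 9.75 and 17.9 RPKM in VAT WT and at 14.1, 13.8 and 14.97 in VAT KO. The 3 KO libraries lay inside the range of the WT libraries, a difference within their spread (-0.07 ± 0.22; 95% interval -0.55 to 0.40; adjusted p = 1). In spleen it stood at 16.2 and 15.1 RPKM in WT and 13.5 and 10.4 in KO, with both KO libraries lower (-0.37 ± 0.27; 95% interval -0.96 to 0.21; adjusted p = 0.695). That difference was -0.20 without spleen KO replicate 3 and -0.54 without replicate 2. One value per gene cannot separate the SREBP1a and SREBP1c transcripts, and the annotated end of Srebf1 overlaps that of Rai1, which stood at 1.48 to 2.98 RPKM.

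Srebf1 was the larger SREBP message in every KO library, and in 2 of the 5 WT libraries. Srebf1 made up 54.0%, 38.5% and 37.0% of the summed Srebf1 and Srebf2 RPKM in the VAT WT libraries and 98.2%, 95.8% and 92.4% in VAT KO. In spleen it made up 60.7% and 39.4% in WT against 83.9% and 86.8% in KO. The sum of both messages was 25.3 to 48.5 RPKM in the 5 WT libraries and 12.04 to 16.2 in the 5 KO libraries, and these ranges did not overlap. Both the share and the sum contain the deleted Srebf2, so its loss alone shifts them. With both genes intact, the log2 ratio of Srebf1 to Srebf2, with 1 RPKM added to each, was -0.38 ± 0.52 in VAT (n = 3) and -0.003 ± 0.826 in spleen (n = 2), which an exact two-sided permutation test did not tell apart (p = 0.5, where 0.1 is the smallest possible). Its difference of -0.38 turned to 0.21 without spleen WT replicate 2.

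**Figure D2:**
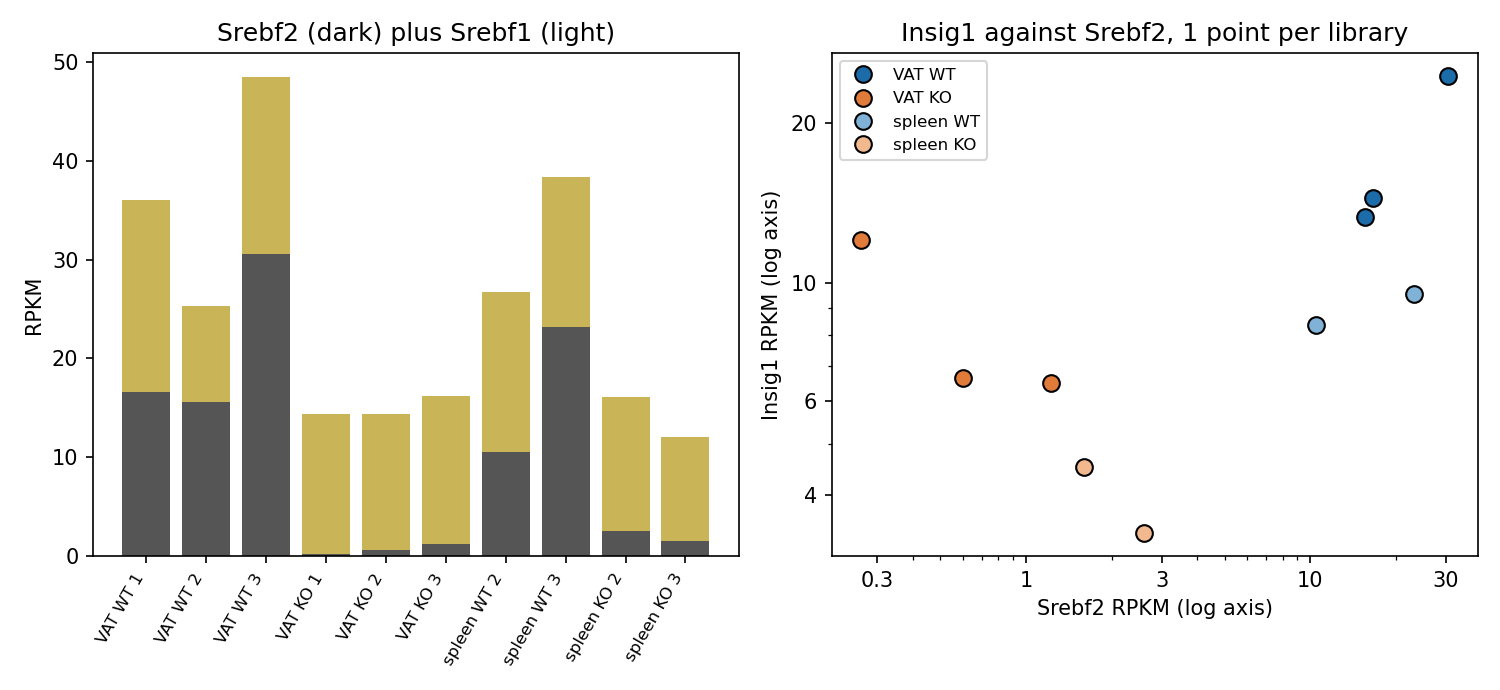
Left, stacked RPKM of Srebf2 (dark) and Srebf1 (light) in each library; right, Insig1 against Srebf2 RPKM on log axes, 1 point per library. Srebf1 makes up 83.9% to 98.2% of the stacks of the KO libraries, which reach 12.04 to 16.2 RPKM, and in each tissue the KO points lie left of and below the WT points.

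Insig1, the retention protein that SREBPs themselves induce (Entrez 231070; plus strand, chr5:28071412-28078662), was the other member whose KO libraries all lay below the WT libraries in both tissues. It stood at 14.4, 13.3 and 24.5 RPKM in VAT WT and at 12.1, 6.63 and 6.49 in VAT KO. The groups did not overlap, though VAT KO replicate 1 came close to the lowest WT library. The mean in KO was 48.2% of WT, and the difference of -0.97 ± 0.26 (95% interval -1.54 to -0.40) did not pass over all genes (adjusted p = 0.240). In spleen Insig1 stood at 8.34 and 9.54 RPKM in WT and at 3.39 and 4.53 in KO. Both KO libraries were lower, with a mean at 44.3% of WT and a difference of -1.01 ± 0.32 that did not pass either (95% interval -1.71 to -0.31; adjusted p = 0.581). Averaged over both tissues the difference was -0.99 ± 0.21 (95% interval -1.44 to -0.54; adjusted p = 0.176), rank 23 by p among 10429 genes. It was -0.95 without spleen WT replicate 3, a fit that leaves a single spleen WT library, which adds no spread of its own. Summed myeloid markers were 12.3 to 15.2 RPKM in VAT WT against 20.2 to 45.6 in VAT KO, and 179 to 240 against 183 to 186 in spleen; their part in the difference was not tested. The averaged comparison uses the same libraries as the comparisons within tissues and is not independent of them.

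Insig2, which holds Scap in the same way but is known to be less dependent on SREBP (Entrez 72999; minus strand, chr1:121304353-121332662), stood slightly above WT in VAT KO and below it in spleen KO. It stood at 6.31, 5.47 and 6.24 RPKM in VAT WT and at 6.67, 6.64 and 6.86 in VAT KO. The KO libraries were all slightly higher, by 0.14 ± 0.18, which did not pass (95% interval -0.24 to 0.52; adjusted p = 0.984). In spleen it stood at 8.60 and 6.003 RPKM in WT and at 4.76 and 5.18 in KO. Both were lower, by -0.46 ± 0.22, which did not pass (95% interval -0.93 to 0.01; adjusted p = 0.596). Dropping spleen WT replicate 2 gave -0.23, and dropping spleen WT replicate 3 gave -0.69. The difference between these effects was 0.60 ± 0.28 (interaction; 95% interval -0.001 to 1.204; adjusted p = 0.699), so a tissue difference was not shown. It was 0.37 and 0.83 with those same libraries dropped in turn, and 0.39 with a pseudocount of 5.

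A plain ratio of 2 genes within a library does not depend on how that library was scaled. Insig1 over Insig2 was 2.29, 2.44 and 3.93 in VAT WT and 1.81, 0.999 and 0.946 in VAT KO. Every KO ratio was lower. With 1 RPKM added to each gene the log2 difference was -1.12 (1.35 ± 0.41 in WT against 0.23 ± 0.47 in KO, n = 3 each; exact two-sided permutation p = 0.1, the smallest possible). In spleen the ratios were 0.969 and 1.59 in WT against 0.712 and 0.873 in KO, a log2 difference of -0.55 (exact p = 0.333, the smallest possible with 2 against 2). The spleen difference was -0.87 without spleen WT replicate 2 and -0.24 without spleen WT replicate 3. Insig1 made up 69.6% to 79.7% of the summed INSIG RPKM in VAT WT and 48.6% to 64.4% in VAT KO, against 49.2% to 61.4% in spleen WT and 41.6% to 46.6% in spleen KO.

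Upstream sequences are shown for Srebf2 and Insig1, the members that were lower in all KO libraries. Srebf2 is the deleted gene, so the design set its fall. SREBPs act through sterol regulatory elements (SRE, 10 bases) and E-boxes (CACGTG) beside sites of the cofactors NF-Y (CCAAT) and Sp1 (GGGCGG). Each covers the 250 bases before the RefSeq start on GRCm38.p6, 5′ to 3′ on the gene's strand, at chr15:82147019-82147268 for Srebf2 and chr5:28071162-28071411 for Insig1, both on the plus strand. Capitals mark NF-Y, Sp1 and E-box matches on either strand and, for Srebf2, the near match to the SRE; no marked matches overlap.
Srebf2: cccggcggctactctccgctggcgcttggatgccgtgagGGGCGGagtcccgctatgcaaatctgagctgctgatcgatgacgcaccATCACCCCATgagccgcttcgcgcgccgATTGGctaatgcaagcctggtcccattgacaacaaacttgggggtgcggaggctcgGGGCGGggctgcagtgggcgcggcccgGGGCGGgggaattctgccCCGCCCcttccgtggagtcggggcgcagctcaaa
Insig1: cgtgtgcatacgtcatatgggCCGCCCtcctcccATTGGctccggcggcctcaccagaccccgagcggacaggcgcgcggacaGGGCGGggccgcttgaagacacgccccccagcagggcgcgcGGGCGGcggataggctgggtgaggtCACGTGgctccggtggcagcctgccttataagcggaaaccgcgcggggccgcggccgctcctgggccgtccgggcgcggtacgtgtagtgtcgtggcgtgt
The Srebf2 window held a stretch, ATCACCCCAT, that matched the SRE at 9 of 10 bases (C10T, counted from 1 at the 5′ end of the element), 163 bases upstream of the start site. A match of at least 9 bases occurred in 1.65% of the 32851 windows of the reference table. The window also held 1 NF-Y box and 4 Sp1 boxes. The Insig1 window held 1 E-box (6.02% of all windows have 1 or more), 1 NF-Y box (33.8%) and 3 Sp1 boxes (32.7%), and its best SRE match was 7 of 10 bases, which 81.7% of windows reach. All 7 members had at least 1 window, 12 in all. None of them held the full SRE (0.0731% of all windows do) or its variant TCACNCCAC (1.05%), and apart from Insig1 an E-box was found in 1 of 2 windows of Scap. These are letters in fixed windows and do not show binding. Their part in the levels of Srebf2 or Insig1 was not tested.

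Scap, the escort and sterol sensor (Entrez 235623; plus strand, chr9:110333288-110384949), was the steadiest member. It stood at 22.7, 20.9 and 22.5 RPKM in VAT WT, 20.7, 22.5 and 21.9 in VAT KO, 23.8 and 20.1 in spleen WT, and 18.9 and 25.5 in spleen KO. The 4 groups overlapped throughout, and the highest library exceeded the lowest 1.35-fold. Its coefficient of variation over the 10 libraries was 8.69%, and 98.5% of tested genes varied more. The KO differences were -0.02 ± 0.15 in VAT (95% interval -0.34 to 0.30; adjusted p = 1) and 0.006 ± 0.181 in spleen (95% interval -0.39 to 0.40; adjusted p = 0.992). Relative to the summed SREBP message, Scap stood at 0.464 to 0.890 in the 5 WT libraries and at 1.17 to 2.12 in the 5 KO libraries. That sum contains the deleted Srebf2, so the gap between these ranges restates its loss and is no result about Scap.

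Mbtps1, site-1 protease (Entrez 56453; minus strand, chr8:119508151-119558864), makes the first cut and also processes other membrane proteins. It stood at 12.7, 16.8 and 12.4 RPKM in VAT WT and 11.7, 15.9 and 11.2 in VAT KO. In spleen it stood at 15.8 and 20.5 RPKM in WT and 16.7 and 16.4 in KO. The genotypes overlapped in both tissues (VAT -0.11 ± 0.18, 95% interval -0.50 to 0.29, adjusted p = 0.995; spleen -0.11 ± 0.22, 95% interval -0.60 to 0.37, adjusted p = 0.874). All KO libraries of VAT lay below those of spleen, while the WT groups overlapped. Mbtps2, site-2 protease (Entrez 270669; minus strand, chrX:157547822-157598715), makes the second cut, inside the membrane. Its highest values were 1.18 RPKM in VAT WT replicate 3 and 1.02 in spleen WT replicate 2, the 2 libraries through which it passed the filter of 1 RPKM in 2 libraries. Its range was 0.398 to 1.18 RPKM in VAT WT, 0.555 to 0.720 in VAT KO, 0.764 to 1.02 in spleen WT and 0.511 to 0.860 in spleen KO. The genotypes overlapped within each tissue and the tissues within each genotype, no comparison passed, and the retrogene Yy2 lies within the annotated span of Mbtps2. Mbtps1 exceeded Mbtps2 by 10.5- to 42.3-fold over the 10 libraries.

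Counted together, 1 of the 7 members, Srebf2, was called in VAT KO, against 0.422% of all genes called in either direction. Srebf2 and Insig1, 2 of the 7, had an unadjusted p under 0.05, against 7.35%. Srebf2 is the deleted gene, so the design set its place in this and the following counts of KO against WT. No other member was called. Of the 7, 2 were lower in every VAT KO library (6.16% of all genes) and Insig2 was higher in every one (8.97%). In spleen limma called 0 of the 7 and 0% of all genes, with 2 members and 8.37% of genes at an unadjusted p under 0.05. There, 4 members (Srebf2, Srebf1, Insig1 and Insig2) were lower in both KO libraries, against 17.5% of all genes. Only Srebf2 and Insig1 among the 7 were lower in every KO library of both tissues, which held for 1.39% of all genes. Averaged over tissues 1 member was called against 0.0767% of genes. The interaction of genotype and tissue called 0 members and 0% of genes (1 member, Srebf2, and 7.08% of genes at an unadjusted p under 0.05). For Srebf2 the interaction was -1.21 ± 0.52 (95% interval -2.34 to -0.09; adjusted p = 0.692). It was -0.68 with spleen WT replicate 2 dropped and -1.75 with replicate 3 dropped, and -1.97 and -0.58 with pseudocounts of 0.1 and 5.

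**Figure D3:**
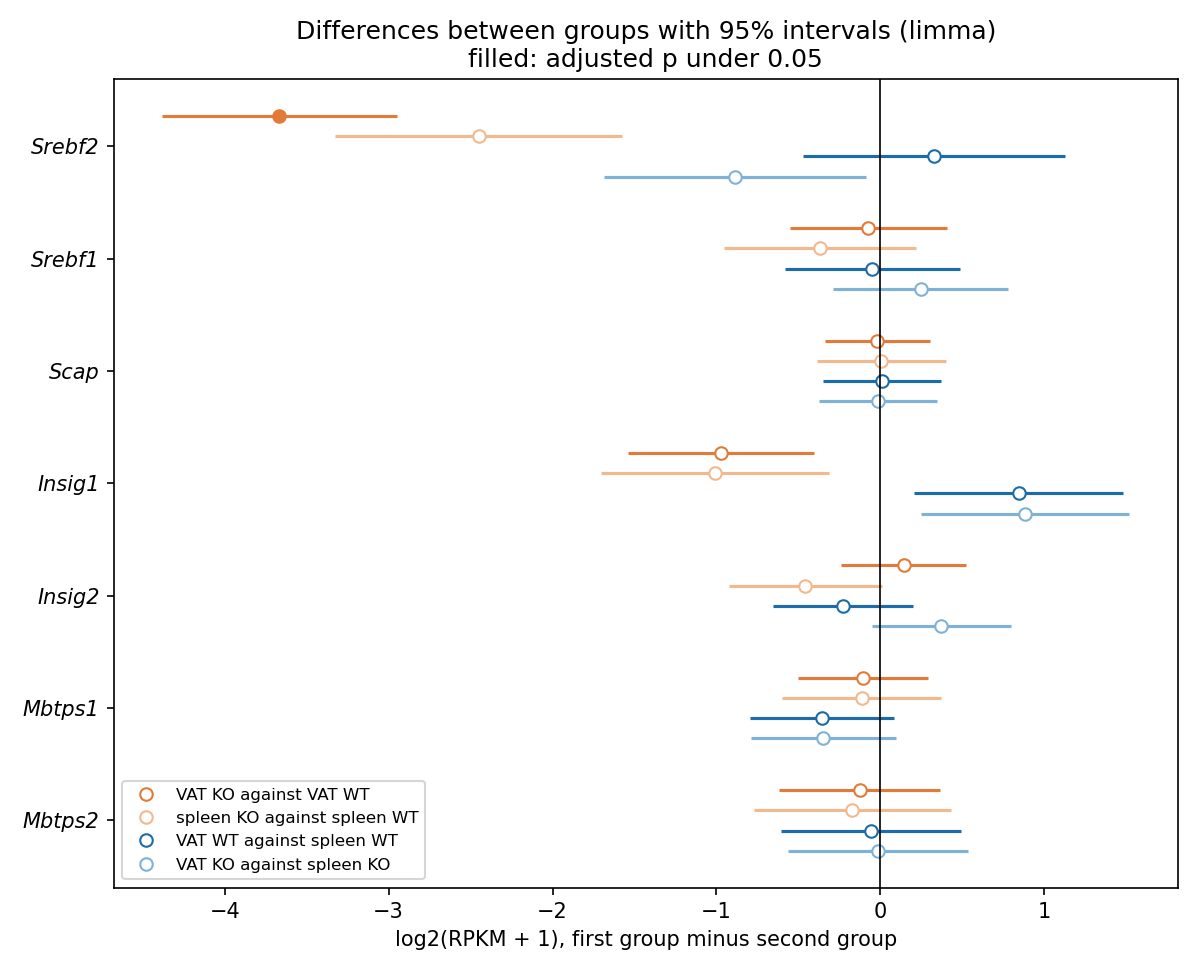
Difference in log2(RPKM + 1) between groups for each gene, with limma's 95% interval; 4 comparisons are coloured and a filled point marks an adjusted p under 0.05. The single filled point is Srebf2 in VAT at -3.67, and the Insig1 points lie near -1 for both deletions and between 0.8 and 0.9 for VAT against spleen.

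Between tissues, limma called 0 of the 7 members with Srebf2 intact, where 26.1% of all genes were called, and 0 with Srebf2 deleted, where 14.6% were. At an unadjusted p under 0.05 there were 1 member against 39.5% of genes with Srebf2 intact, and 2 against 28.2% with it deleted. Insig1 was higher in every VAT WT library than in spleen WT (18.1% of genes). With Srebf2 deleted, Srebf1, Insig1 and Insig2 were higher in every VAT library (20% of genes), and Srebf2 and Mbtps1 were lower (30.4%). Insig1 came closest. Its lowest VAT WT library, at 13.3 RPKM, lay above both spleen WT libraries, and the mean was 195% of that in spleen (0.84 ± 0.29; 95% interval 0.21 to 1.48; adjusted p = 0.0508). It passed with a pseudocount of 5 (0.65, adjusted p = 0.0429), with only genes of mean RPKM of at least 5 (0.84, 0.0466), with quantile normalization (0.93, 0.0413) and with scaling by median ratios (0.99, 0.0318). It also passed without VAT WT replicate 2 (1.00, 0.0434) or VAT KO replicate 1 (0.84, 0.0344). Insig1 did not pass with a pseudocount of 0.1, every gene kept, a robust spread, the replicate block or the compared groups alone. Nor did it pass with any other library left out, and over all left-out libraries it ran from 0.58 to 1.00. With Srebf2 deleted, all VAT KO libraries were again above both spleen KO libraries, at 212% of the spleen mean (0.88 ± 0.29; 95% interval 0.25 to 1.52; adjusted p = 0.0642). This passed with the compared groups alone (0.88, 0.0430), without VAT WT replicate 3 (0.88, 0.0437) and without spleen WT replicate 2 (0.88, 0.0497). In the other fits of VAT KO against spleen KO Insig1 did not pass. These tissue comparisons share libraries with those of genotype. Summed myeloid markers reached 12.3 to 45.6 RPKM in libraries from VAT but 179 to 240 in those from spleen, and their part in the tissue differences was not tested. Scaling by median ratios moved the median of all genes in VAT WT against spleen WT from -0.12 to 0.01, a shift of 0.14. Beside the median of -0.12, Mbtps1 stood at -0.36 ± 0.20 (adjusted p = 0.216), Insig2 at -0.23 ± 0.20 (0.416), Srebf2 at 0.33 ± 0.37 (0.543), Mbtps2 at -0.06 ± 0.25 (0.888), Srebf1 at -0.05 ± 0.25 (0.904) and Scap at 0.01 ± 0.16 (0.971). With spleen WT replicate 2 dropped, Insig2 moved to -0.001 and Mbtps1 to -0.53, and with replicate 3 dropped to -0.46 and -0.18. Scaling by median ratios gave -0.09 for Insig2 and -0.21 for Mbtps1.

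Within each tissue, the WT library with the most Srebf2 also had the most Insig1. The ratio of Insig1 to Srebf2 was 0.870, 0.855 and 0.803 in VAT WT, but 0.794 and 0.412 in spleen WT, where Insig1 differed little between libraries (8.34 and 9.54 RPKM) that held 10.5 and 23.2 RPKM of Srebf2. Within KO groups the order differed: VAT KO replicate 1 had the least Srebf2 (0.263 RPKM) and the most Insig1 (12.1), and in spleen KO the library with less Srebf2 likewise had more Insig1. After subtracting each tissue's mean, Pearson's r of log2(RPKM + 1) over the 10 libraries was 0.83 between Insig1 and Srebf2. This describes libraries that share genotype groups and carries no test. Genotype means were not subtracted, so r also holds the gap between WT and KO. Among 6627 genes of at least 5 RPKM on average, Hmgcs1, the HMG-CoA synthase of the mevalonate pathway, was most like Srebf2 (r = 0.97), followed by the cytidine deaminase Apobec3 (0.95) and the CD200 receptor Cd200r1 (0.94). Apobec3 stood at 18.6 RPKM in VAT WT against 4.18 in VAT KO, and at 23.7 in spleen WT against 4.76 in spleen KO. Insig1 was most like Rpn1, a subunit of oligosaccharyltransferase (0.93), Fdps, farnesyl diphosphate synthase (0.92), and Apobec3 (0.91). Srebf1 was most like Fam110a (0.93), Odc1, ornithine decarboxylase (0.91), and Pkp3, a plakophilin (0.90). Shared control of genes that were alike was not tested.

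The genes that act with the 7 members were described by list. In VAT KO, sterol targets of SREBP2 were the list with calls: all 23 tested genes lay below 0, against 45.5% of all genes, and 5 fell, against 0.115%. Their median was -0.77 against 0.02 over all genes. Sqle, squalene epoxidase, fell from 9.24 ± 1.39 to 0.509 ± 0.278 RPKM (-2.77 ± 0.31, adjusted p = 0.00501). Idi1, isopentenyl diphosphate isomerase, fell from 6.08 ± 2.07 to 1.07 ± 0.29 RPKM (-1.74 ± 0.27, adjusted p = 0.0149), and Hmgcs1 from 10.7 ± 3.27 to 3.23 ± 0.41 (-1.44 ± 0.25, adjusted p = 0.0305). The number that fell was 1 without VAT WT replicate 1, VAT KO replicate 2 or VAT KO replicate 3, 1 with only genes of mean RPKM of at least 5, and 1 to 7 over all alternatives. In spleen KO 20 of these 23 genes lay below 0, against 53.2% of all genes. By limma 0 passed, as over all genes, 11 had an unadjusted p under 0.05, and the median was -0.53 against -0.03 over all genes. Cyp51, lanosterol demethylase, stood there at 2.58 ± 1.44 against 13.0 ± 6.33 RPKM in WT (-1.95 ± 0.38, adjusted p = 0.306). Fatty acid targets of SREBP1 had 0 calls among 12 tested genes in either tissue, against 0.422% of all genes in VAT and 0% in spleen. Their medians were -0.40 in VAT and -0.10 in spleen. In VAT 10 of the 12 lay below 0, against 45.5% of all genes, and in spleen 7, against 53.2%. At an unadjusted limma p under 0.05 there were 3 in VAT, against 7.35% of all genes, and 2 in spleen, against 8.37%. Mid1ip1, an activator of acetyl-CoA carboxylase, stood at 62.5% of WT in VAT (-0.64 ± 0.21, adjusted p = 0.389) and at 50.6% in spleen (-0.83 ± 0.25, adjusted p = 0.549). Elovl5 stood near WT in VAT (-0.08 ± 0.21) but higher in spleen KO, at 159% of WT (0.75 ± 0.25, adjusted p = 0.582). Its spleen means were 81.2 ± 6.69 RPKM in KO and 51.0 ± 24.8 in WT (n = 2 each), so the WT libraries differed widely.

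Among 44 tested genes of the machinery around the members limma called 0 in VAT KO, where 0.422% of all genes were called, and 0 in spleen KO, where 0% were. At an unadjusted p under 0.05 there were 4 and 3 of the 44, against 7.35% and 8.37% of all genes. The 10 tested genes of retention and sterol-driven degradation had a median of 0.04 in VAT KO and 0.01 in spleen KO. Of them, Rnf145, a sterol-responsive ubiquitin ligase, stood at 16.4 ± 1.02 against 22.96 ± 2.003 RPKM in VAT (-0.46 ± 0.14, adjusted p = 0.335), and Rnf139, the ligase TRC8, at 20.8 against 16.3 (0.34, adjusted p = 0.579). The 10 genes of the COPII coat had medians of 0.04 and 0.14, and none of them passed, with Sec24d at 0.51 ± 0.23 in spleen (adjusted p = 0.594). The 8 tested Golgi partners and other substrates of the proteases had medians of -0.12 and -0.14. Atf6, an endoplasmic reticulum stress sensor cut by the same 2 proteases, stood at 10.3 against 15.3 RPKM in VAT (-0.53 ± 0.23, adjusted p = 0.638). The 10 nuclear cofactors and turnover genes had medians of 0.14 and 0.15, with Lpin1, a phosphatidate phosphatase that restrains nuclear SREBP, at 0.49 ± 0.21 in VAT (adjusted p = 0.621) and 0.51 ± 0.25 in spleen (0.613). The 6 tested genes of LXR and its targets had medians of -0.06 and 0.35, with the receptor Rxrb at 0.43 in spleen (adjusted p = 0.626).

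**Figure D4:**
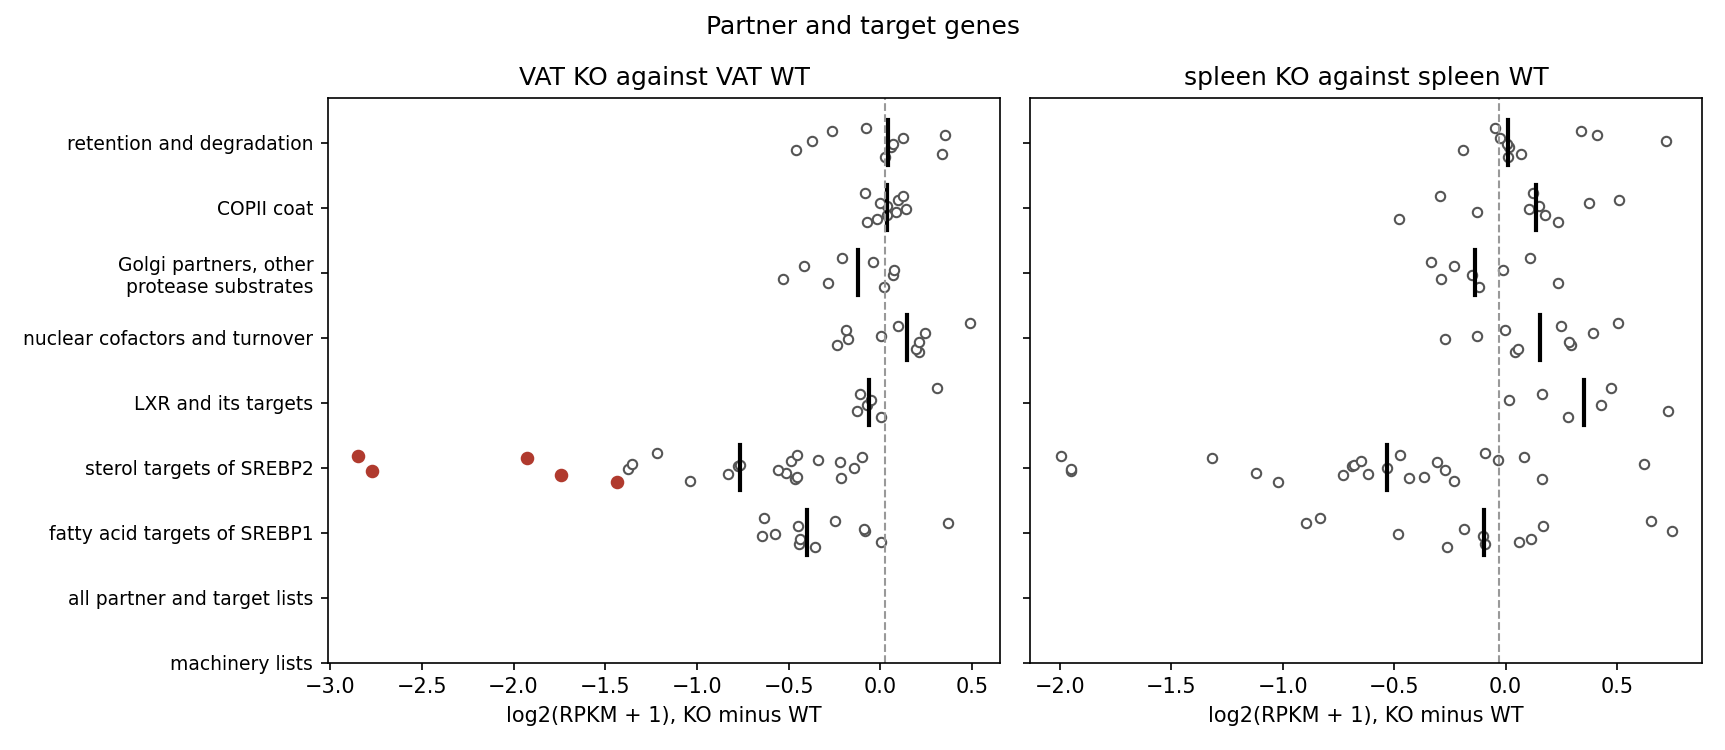
Difference in log2(RPKM + 1), KO minus WT, of each partner or target gene (points) in VAT and spleen, by list; black bars are list medians, filled points have an adjusted p under 0.05, and the dashed line is the median of all genes. Filled points occur among sterol targets of SREBP2 in VAT (5 of 23) and nowhere else. The medians of the machinery lists lie between -0.14 and 0.35, and those of fatty acid targets of SREBP1 at -0.40 in VAT and -0.10 in spleen.

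Between tissues, 15 of the 79 tested partners and targets were called with Srebf2 intact, or 19% against 26.1% of all genes, and 9 with it deleted, or 11.4% against 14.6%. Both pooled shares lay below those of all genes, but not every list did. Of the 8 Golgi partners and other substrates of the proteases, 3 were called with Srebf2 intact (37.5%) and 4 with it deleted (50%). For the 12 fatty acid targets these numbers were 4 (33.3%) and 1 (8.33%), and for the 10 COPII coat genes 2 (20%) and 2 (20%). The remaining lists lay below all genes in both comparisons. No list was tested as a set, and the calls that follow describe single genes. With Srebf2 intact, Atf6 was higher in VAT at 15.3 against 4.94 RPKM (1.45 ± 0.26, adjusted p = 0.00142), its relative Atf6b lower at 17.6 against 32.0 (-0.83 ± 0.16, adjusted p = 0.00212), and Creb3l2, another protease substrate, higher at 5.68 against 2.40 (1.02 ± 0.26, adjusted p = 0.0140). The COPII cargo adaptor Sec24d was higher in VAT at 13.3 ± 1.64 against 5.57 ± 1.35 RPKM (1.13 ± 0.21, adjusted p = 0.00203). The coat subunit Sec13 was lower at 53.5 ± 3.46 against 85.8 ± 28.7 RPKM (-0.63 ± 0.18, adjusted p = 0.0206). With Srebf2 deleted, Atf6 (1.21), Atf6b (-0.61), Creb3l2 (1.31) and Sec24d (0.72) again passed in the same direction, at adjusted p of 0.00717, 0.0199, 0.00508 and 0.0385. Sec13 did not pass there (-0.22 ± 0.18, adjusted p = 0.475). Rnf139, lower in VAT with Srebf2 intact (-0.49 ± 0.15, adjusted p = 0.0347), did not pass with it deleted either (-0.22 ± 0.15, adjusted p = 0.384). The interaction did not pass for Sec13 (0.42 ± 0.25, adjusted p = 0.767) or Rnf139 (0.27 ± 0.22, adjusted p = 0.821). Of the 23 sterol targets, 4 were called higher in VAT with Srebf2 intact, where 10.7% of all genes were. With it deleted 1 was, Sc5d (0.68 ± 0.17, adjusted p = 0.0157), against 7.65% of all genes; whether that number differed was not tested.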

How the data were processed

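Per the labels' protocols, cells were snap frozen after the sort. The kits were Quick-RNA MicroPrep for RNA, SMART-seq v4 for cDNA and Nextera XT, which does not mark the strand, for libraries. The submitters' processing notes name STAR and mm10. One table of RPKM values was deposited, per the file headers. How the authors counted reads, with which gene models, and which genes they left out is not stated in the labels. These are not counts, their low values showed no steps of single reads, and read depth is unknown, so no counting error is given. RPKM summed to 185319 to 210779 per library. Of 11 labelled samples 10 had a column; spleen KO replicate 1 was not analysed here, and 1 column of per-sample values, headed as spleen WT replicate 1, matched no labelled sample and was not used. Spleen WT values thus rest on 2 libraries.

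One limma (version 3.58.1) model with R 4.3.3 took log2(RPKM + 1), trend on, robust off, 4 group means and no covariate, and kept genes that reached 1 RPKM in 2 or more libraries (10429 of 10992; 6 residual degrees of freedom). Tests were two-sided, and Benjamini-Hochberg adjustment ran over all tested genes of a comparison. The fit was checked on simulated tables. Ratios used exact permutation tests over libraries. RefSeq tables of GRCm38.p6 gave coordinates, counted from 1, and upstream sequences, and 10987 of the table's identifiers were found there. In that table Spring1 is the gene listed as 2410131K14Rik, and it was counted once.

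Members and lists were chosen with earlier results of these data known. All 7 members were named, and up to 3 genes of each list by smallest p; certain genes picked by this rule are not reported here, and the next by p took their place. Likeness was ranked by Pearson's r after subtracting tissue means. Other fits used the compared groups alone, a pseudocount of 0.1 or 5, every gene or those of mean RPKM 5 and above, scaling by median ratios, quantile normalization, a robust spread, a replicate block, or left out each library. The count of sterol targets called in VAT was refitted the same way, a choice made after seeing the data. The tests had been planned for 11 samples and ran on the 10 with values.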

Additional observations from a re-analysis of the deposited data

How the results depend on the processing

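Over the alternatives and libraries left out, Srebf2 stayed below WT in KO, at -4.85 to -2.14 in VAT, where it was called in every fit, and at -2.99 to -1.56 in spleen. The number of members called in spleen KO was 0 with every library and 1 without spleen WT replicate 2 or replicate 3 (range 0 to 1). In VAT WT against spleen WT it was 0, and 1 with a pseudocount of 5, a mean RPKM of at least 5, quantile normalization or scaling by median ratios (range 0 to 1 with libraries left out). In VAT KO against spleen KO it was 0, and 1 with the compared groups alone (0 to 1 with libraries left out). Averaged over tissues it was 1, or 1 to 2 with libraries left out. The causes of these changes were not tested. Over the whole table, 44 genes were called in VAT KO, against 20 with a pseudocount of 5. With libraries left out there were 2 to 59, namely 2 when VAT WT replicate 1 or VAT KO replicate 3 was dropped, 27 for VAT WT replicate 3, 5 for VAT KO replicate 2 and 19 for either spleen KO library. In spleen KO 0 genes were called, against 2 with a pseudocount of 0.1, 5 without spleen WT replicate 2, 1395 without spleen WT replicate 3 and 13 without spleen KO replicate 2. Without spleen WT replicate 3 the interaction called 514 genes in place of 0 and the average 769 in place of 8. The tissue comparisons called 2723 genes in WT (1718 to 3892 with libraries left out; 1749 with the compared groups alone) and 1522 in KO (747 to 2209).

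Counted over members, comparisons and fits, differences of members near 0 changed sign 48 times, none of them called (largest size 0.24, smallest adjusted p = 0.383). With libraries left out, VAT KO against WT ran from -0.37 to 0.10 for Srebf1, -0.055 to 0.012 for Scap and -0.25 to 0.025 for Mbtps1. Spleen KO against WT ran from -0.20 to 0.21 for Scap and -0.29 to 0.064 for Mbtps1. VAT WT against spleen WT ran from -0.21 to 0.86 for Srebf2, -0.22 to 0.24 for Srebf1, -0.11 to 0.13 for Scap and -0.16 to 0.13 for Mbtps2, and VAT KO against spleen KO from -0.22 to 0.19 for Scap and -0.16 to 0.14 for Mbtps2. The interaction ran from -0.22 to 0.30 for Insig1, -0.23 to 0.18 for Scap, -0.17 to 0.19 for Mbtps1 and -0.14 to 0.20 for Mbtps2, and the average from -0.11 to 0.097 for Scap. The Srebf1 to Srebf2 ratio ran from -0.96 to 0.21. With quantile normalization and scaling by median ratios, Srebf1 in VAT WT against spleen WT was 0.056 and 0.10, Scap in VAT KO against spleen KO 0.085 and 0.072, and the interaction -0.037 and -0.034 for Insig1 and -0.023 and -0.057 for Mbtps1. The interaction was -0.089 for Mbtps2 with quantile normalization and -0.095 for Insig1 with a pseudocount of 5.

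Deviations of same-numbered WT and KO libraries of VAT correlated at -0.092, 0.049 and -0.15, against -0.15 to 0.22 for libraries of different numbers. In spleen they correlated at -0.061. With 2 libraries per group only -0.061 or 0.061 can occur there, so the spleen value cannot show or exclude pairing. Pairing of VAT with spleen libraries by number was not examined. With the replicate block, 39 genes and 1 member were called in VAT, and Srebf2 kept its difference (-3.67, adjusted p = 0.000961); it changed no call of a member. Groups of 2 and 3 libraries and an unknown read depth limit what could be seen. Mbtps2 was not tested with a mean RPKM of at least 5 or without either library that carried it past the filter.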
